A study of Mus musculus with 7 samples.

Results

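Genes of endoplasmic reticulum (ER) stress and secretion were followed in cells that the labels call sinusoidal endothelium, sorted from mouse bone marrow as CD31+ Sca1- cells without CD45, Ter119, Gr1 or CD11b. The set holds 31 named genes out of 50435 rows in the deposited table, each found once by its symbol, and all 31 reached the mean of 1 RPM (a gene's reads scaled to the size of its library) needed for testing. They fall into 14 chaperones and folding enzymes, 4 genes made up of the stress sensors and Xbp1, 6 genes of the Perk-Atf4 arm, 3 genes of ER-associated degradation and 4 genes of the translocon. Every mouse was an irradiated wild-type recipient of Zbtb46dtr marrow, in which the diphtheria toxin receptor sits at Zbtb46, a gene used to mark classical dendritic cells. After 8 weeks, 3 samples came from mice given 200 ng of diphtheria toxin (DT) and 4 from mice given PBS, all taken 1 day after the injection. The receptor was carried by the grafted marrow in both groups, and neither age nor pooling of animals is stated. The labels call the samples biological replicates, and p-values measure the spread between them.

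Proteins that leave the cell or sit in its membranes enter the ER through the Sec61 channel, fold there with the help of chaperones and disulfide isomerases, and are sent to the proteasome when folding fails. When unfolded protein builds up, the sensors Perk (gene Eif2ak3), Ire1 (gene Ern1) and Atf6 raise chaperone genes, splice Xbp1 mRNA, slow translation and favour translation of Atf4, which turns on genes of amino acid supply and, under lasting stress, of cell death. Professional secretory cells such as plasma cells need this machinery in quantity, and endothelial cells use it to make adhesion and clotting proteins.

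Library depth, taken from the value of 1 read in each library, was 40400000 to 51300000 reads in DT and 33200000 to 39100000 reads in PBS. A signal of 3 reads equals 0.0585 to 0.0742 RPM in DT and 0.0767 to 0.0904 RPM in PBS, which covers counting error only. Markers that define endothelium were low, the highest value in any library being 5.07 RPM (Esam in DT replicate 2). A list of 18 of them summed to 11.4 to 20.3 RPM in DT and 4.49 to 13.8 RPM in PBS, 4 of the 18 reached the mean for testing, and Sox17 was at 0 in all 7 libraries. Neutrophil markers (16 genes) summed to 61359 to 65850 RPM in DT and 2090.4 to 4679.5 RPM in PBS. Erythroid markers summed to 1688 to 2251 RPM in DT, against 1049 RPM in PBS replicate 1, which stood apart, and 6951 to 11346 RPM in the other PBS libraries. Much of the DT sum was globin RNA, with Hbb-bs at 825 to 1109 RPM in DT and 133 RPM in PBS replicate 1. Car1 went the other way, at 45.1 to 103 RPM in DT and 229.9 RPM in PBS replicate 1. Car2 did too, at 134 to 230.4 and 418 RPM, so these sums do not rank single erythroid markers. The values below describe the RNA of whole sorted samples, in which more cells of a type and more RNA per cell cannot be told apart.

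Of the 14 chaperones and folding enzymes 7 were higher in DT (50.0%). In the Perk-Atf4 arm 1 of 6 was (16.7%), near the 13.4% of all tested genes, and the other classes were split. With limma on log2(RPM + 1), 11 of 31 members were higher in DT and 3 lower at an adjusted p under 0.05, where 13.4% of all 14100 tested genes were higher and 18.6% lower. In percent, 35.5% of members were higher and 9.68% lower, and the 14 called in either direction were 45.2% of members, against 32% of all genes. The median difference of the members was 0.33 on the log2 scale and that of all tested genes -0.23. Under median-ratio scaling, which brought the median of all genes to -0.01, 15 members were higher and 2 lower, where 17% and 8.88% of all genes were. The count of members higher in DT was 8 to 9 without any 1 of the DT libraries and 14 without PBS replicate 1, and the count lower was 5 without PBS replicate 1. The counts over all tested genes moved the same way. Without a DT library 1383 to 1526 were higher, and without PBS replicate 1 2108 were higher and 3628 lower. In the main fit 1894 were higher and 2622 lower. DT and PBS values did not overlap in 14 members that were higher and 3 that were lower in DT, against 16.1% and 24.7% of all tested genes and 40.9% in either direction.

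**Figure D1:**
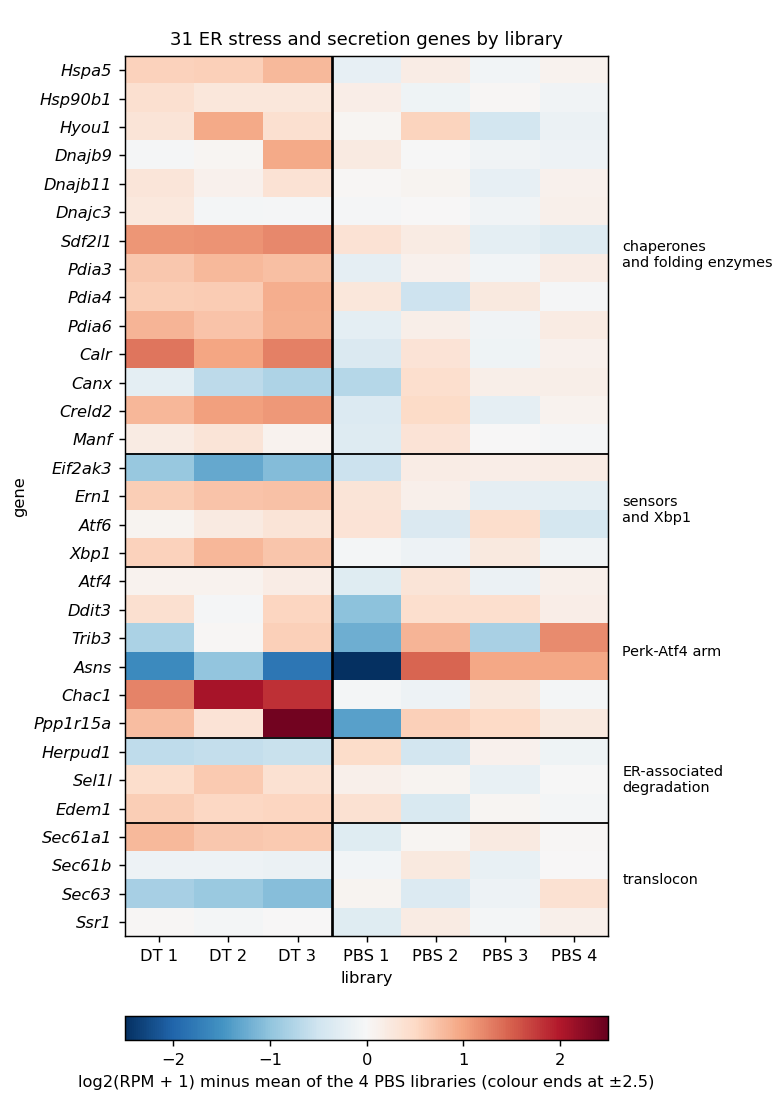
Colour gives log2(RPM + 1) of each of the 31 members in each library (columns, 3 DT then 4 PBS) minus the mean of the 4 PBS libraries, with members grouped by role from chaperones at the top to the translocon at the bottom. Red bands run through the 3 DT libraries in Calr, Sdf2l1, Creld2 and Chac1, blue ones in Eif2ak3 and Sec63, and PBS replicate 1 differs from the other PBS libraries in Asns, Ddit3 and Ppp1r15a.

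Among the 14 chaperones and folding enzymes, 7 were higher in DT (Calr, Sdf2l1, Pdia6, Pdia3, Hspa5, Creld2 and Pdia4) and 7 did not pass. Their median log2 difference was 0.61, and 13 of the 14 differences were positive. Calr encodes calreticulin, the calcium-binding lectin that folds glycoproteins in the ER lumen. It lies on chromosome 8 at 84841850 to 84846934 (mm10, GENCODE vM21). Its level was 545, 429.7 and 514 RPM in DT replicates 1 to 3, against 167, 274, 201 and 233 RPM in PBS replicates 1 to 4. The lowest DT library was above the highest PBS library, and the ratio of means was 2.27-fold (log2 difference 1.20 ± 0.18 SE, limma adjusted p = 0.0011). Hspa5 encodes BiP, the Hsp70 chaperone that holds the stress sensors inactive until unfolded protein draws it away. It stood at 631, 637 and 735 RPM in DT, against 366, 480.5, 401 and 445 RPM in PBS. All DT libraries were again above all PBS libraries, at a smaller ratio of 1.58-fold (log2 difference 0.66 ± 0.14 SE, limma adjusted p = 0.00707).

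Sdf2l1, which works with Hspa5 and its co-chaperones on newly made proteins, was at 68.4, 69.7 and 73.3 RPM in DT and at 40.8, 36.1, 26.4 and 24.7 RPM in PBS. The DT libraries were close together and the groups did not overlap (2.20-fold, limma adjusted p = 0.00229). Creld2, a small secreted and ER-resident protein raised by ER stress, was at 40.1, 45.9 and 48.0 RPM in DT and at 17.2, 31.3, 18.7 and 23.6 RPM in PBS (1.97-fold, limma adjusted p = 0.00918). The disulfide isomerases Pdia3 and Pdia6 form and rearrange disulfide bonds, Pdia3 together with calreticulin on glycoproteins. Pdia3 was at 641, 705 and 673 RPM in DT and at 343, 432, 385 and 457 RPM in PBS (1.67-fold, limma adjusted p = 0.00365). Pdia6 was at 397, 360.1 and 411 RPM in DT and at 186, 243, 207 and 253 RPM in PBS (1.75-fold, limma adjusted p = 0.00272). In all of these the 3 DT libraries exceeded the 4 PBS libraries. Pdia4, a further isomerase, had a ratio of 1.62-fold (limma adjusted p = 0.0235), but its adjusted p was 0.0554 to 0.102 without any 1 of the DT libraries, 0.0559 without PBS replicate 4, 0.0834 without a filter on low values and 0.0524 without the variance trend.

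The other 7 genes of the class did not pass. Hsp90b1, the ER form of Hsp90, had a ratio of 1.25-fold, with DT libraries at 444 to 484 RPM and PBS libraries at 338 to 407 RPM, and passed with array weights (limma adjusted p = 0.0191), without PBS replicate 1 (0.024) and under median-ratio scaling (0.0133). Hyou1, an exchange factor and partner of Hspa5, had a ratio of 1.47-fold and passed with array weights (0.0387) and without PBS replicate 2 (0.043). Dnajb11, an Hspa5 co-chaperone, had a ratio of 1.20-fold and passed under median-ratio scaling (0.0305). The co-chaperones Dnajb9 and Dnajc3 had ratios of 1.33-fold and 1.05-fold and Manf, a secreted ER stress protein, 1.14-fold. Dnajb9 was at 13.2, 14.0 and 27.2 RPM in DT and at 12.3 to 16.1 RPM in PBS, so that only DT replicate 3 was above the PBS range. Canx, singled out after its values were seen, encodes calnexin, the membrane-bound partner of calreticulin in the same glycoprotein cycle. It was at 638, 481 and 440.4 RPM in DT and at 459, 1014, 832 and 840.1 RPM in PBS, a ratio of 0.661 (log2 difference -0.56 ± 0.26 SE, limma adjusted p = 0.125). PBS replicate 1 lay within the DT range and the other 3 PBS libraries above it. Without PBS replicate 1 Canx was lower in DT (log2 difference -0.80, limma adjusted p = 0.00414), as it was with array weights (-0.66, 0.0158).

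Promoter sequences were read for the members with an entry. The ER stress response element (ERSE), CCAAT followed after 9 bases by CCACG, is known as the site where Atf6 acts together with the general factor NF-Y. It was searched on both strands of the 250 bases before each transcription start in RefSeq's GRCm38.p6 promoters, the build also called mm10. Of the 31 members 27 had such a window, 12 of them in the chaperone class. An ERSE lay in 7 of these 12, namely Calr, Canx, Creld2, Dnajc3, Hsp90b1, Hspa5 and Pdia6, and in no window of the other classes, where 0.113% of all 32851 windows held one. Hsp90b1 had a pair of them. The elements are shown because every member match fell in this class, with 15 bases on each side, 5′ to 3′ on the strand of the gene. Capitals mark the fixed letters, and CGTGG before ATTGG is the element read on the opposite strand.
Calr, chr8:84847060-84847108, minus strand: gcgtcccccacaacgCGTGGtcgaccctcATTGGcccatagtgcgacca
Canx, chr11:50325785-50325833, minus strand: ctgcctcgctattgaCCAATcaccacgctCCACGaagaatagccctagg
Creld2, chr15:88819505-88819553, plus strand: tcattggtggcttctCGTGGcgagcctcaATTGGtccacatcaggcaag
Dnajc3, chr14:118937812-118937860, plus strand: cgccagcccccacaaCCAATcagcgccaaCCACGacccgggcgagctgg
Hsp90b1, chr10:86705623-86705671, minus strand: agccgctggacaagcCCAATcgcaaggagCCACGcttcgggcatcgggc
Hsp90b1, chr10:86705518-86705566, minus strand: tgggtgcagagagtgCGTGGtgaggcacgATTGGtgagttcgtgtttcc
Hspa5, chr2:34772010-34772058, plus strand: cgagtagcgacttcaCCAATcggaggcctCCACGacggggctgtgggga
Pdia6, chr12:17266476-17266524, plus strand: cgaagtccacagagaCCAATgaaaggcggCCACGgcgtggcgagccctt

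A match is a description of letters and not of a bound site. Of the 7 chaperones with an ERSE 4 were higher in DT (Calr, Creld2, Hspa5 and Pdia6), and of the 5 with a window but no match 3 were. Canx, Dnajc3 and Hsp90b1 hold the same element and did not pass. The elements began between 212 bases (Hsp90b1) and 65 bases (Hspa5) before the start. A related element, ERSE-II (ATTGG followed after 1 base by CCACG, not overlapping any ERSE here), occurred in 0.0304% of all windows and in 1 member window, that of Herpud1, 52 bases before its start. Herpud1 was lower in DT, as given with the degradation genes, so its element is shown.
Herpud1, chr8:94386362-94386402, plus strand: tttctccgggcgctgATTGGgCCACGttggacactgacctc
Neither the Xbp1 core motif, spelled TGACGTGG, nor the Atf4 composite motif, spelled TGATGNAAT, was found on either strand of the member windows. Of all windows 0.563% and 0.816% held these spellings. The last base of the Xbp1 motif was fixed as G, and the Hspa5 window holds tgacgtga, which differs in that base only. The last base of the Atf4 motif was fixed as T, and spellings with another last base were not counted for either motif. The Asns window holds tgatgaaac, which differs in that base only. The Chac1 and Herpud1 windows hold gttgcatca, which differs in the same base only when read on the opposite strand. An absence of Atf4 or Xbp1 sites therefore cannot be read from this search.

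**Figure D2:**
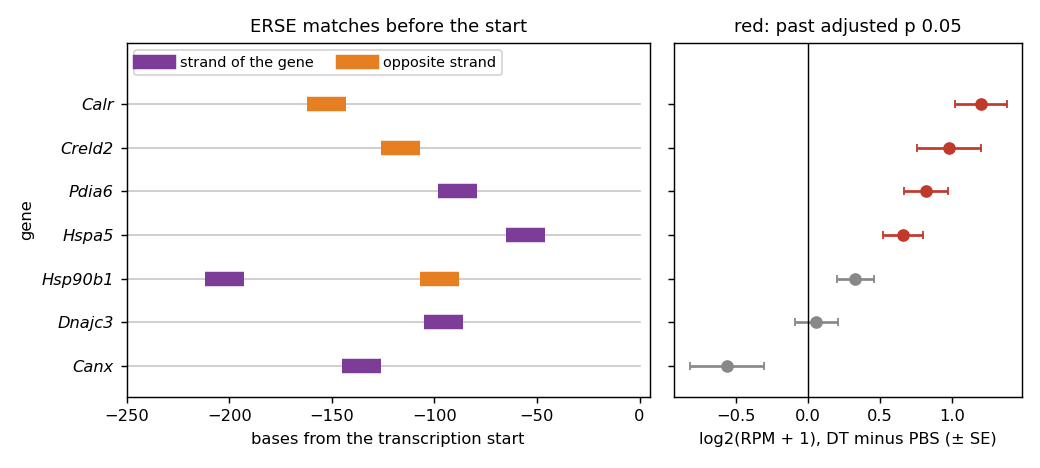
The left panel places each ERSE match by its distance in bases from the transcription start in the 7 chaperone genes that hold one, coloured by strand, and the right panel gives the difference in log2(RPM + 1), DT minus PBS, with its SE from limma. Genes with a match run from Canx at -0.56 to Calr at 1.20, and 4 of the 7 passed the threshold.

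Of the sensors and Xbp1, Xbp1 was higher and Eif2ak3 lower in DT, while Ern1 and Atf6 did not pass. Eif2ak3 encodes Perk, the kinase that slows translation when the ER is overloaded, and lies on chromosome 6 at 70844515 to 70905245. It was at 19.5, 15.3 and 17.8 RPM in DT, against 26.3, 43.9, 43.4 and 44.3 RPM in PBS. Every DT library was below every PBS library, with PBS replicate 1 the nearest, and the ratio was 0.444 (log2 difference -1.10 ± 0.22 SE, limma adjusted p = 0.0053). Xbp1, the transcription factor whose mRNA Ire1 splices, was at 109, 129 and 118 RPM in DT and at 70.3, 66.5, 85.5 and 68.3 RPM in PBS. The groups did not overlap (1.63-fold, log2 difference 0.70 ± 0.14 SE, limma adjusted p = 0.00548). Values per gene do not tell the spliced from the unspliced form of Xbp1 mRNA.

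Ern1, the gene of Ire1, was at 8.24, 8.85 and 9.07 RPM in DT and at 6.60, 5.62, 4.19 and 4.11 RPM in PBS. These low levels did not overlap, and the 1.70-fold ratio missed the threshold (limma adjusted p = 0.0717), but passed under median-ratio scaling (0.0337), without the variance trend (0.0348), with array weights (0.0181) and without PBS replicate 1 (0.0376). Atf6, the sensor that is cut in the Golgi to free a transcription factor, was at 29.5, 33.1 and 35.2 RPM in DT and at 36.1, 21.7, 38.6 and 20.6 RPM in PBS. Its DT values lay inside the PBS range (log2 difference 0.20 ± 0.25 SE, limma adjusted p = 0.563).

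**Figure D3:**
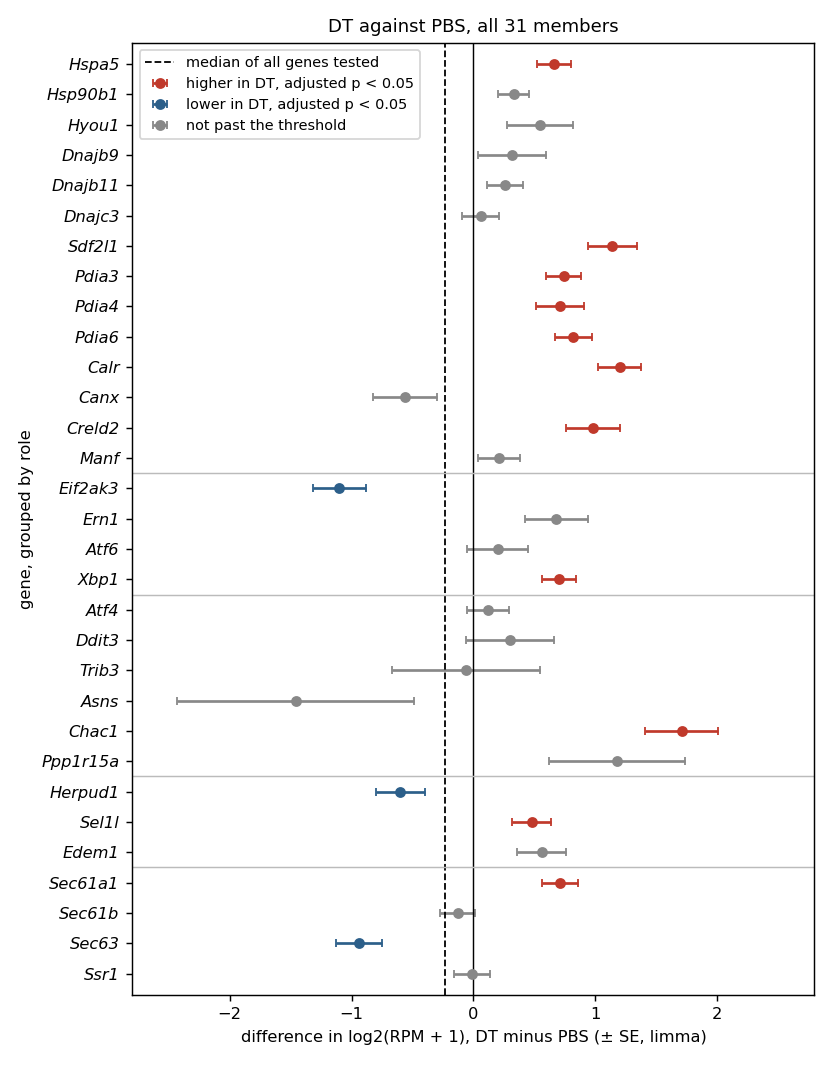
Points give the difference in log2(RPM + 1), DT minus PBS, with its SE from limma for each of the 31 members (rows, grouped by role), and the dashed line marks the median of all tested genes at -0.23. Most chaperones lie to the right of the dashed line, the sensors and translocon genes lie on both sides, and Asns and Trib3 have the widest errors.

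In the Perk-Atf4 arm only Chac1 passed. Chac1 encodes an enzyme that breaks down glutathione and is a target of Atf4, and it lies on chromosome 2 at 119351229 to 119354381. It was at 1.58, 3.57 and 2.89 RPM in DT, against 0.0602, 0, 0.290 and 0.0517 RPM in PBS. These levels rest on about 64, 150 and 148 reads in DT and 2, 0, 11 and 2 reads in PBS. All DT libraries were above all PBS libraries (log2 difference 1.71 ± 0.30 SE, limma adjusted p = 0.00263). The log2 scale with a pseudocount of 1 understates so low a gene, and the ratio of means was 26.7-fold. Chac1 reached the mean of 1 RPM only through the DT libraries, so a tested Chac1 had to be higher there, and without DT replicate 2 or 3, or with a minimum mean of 5 RPM, it was not tested. Without a filter on low values its adjusted p was 0.00669.

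Atf4, the transcription factor of the arm, is controlled mainly at translation. Its RNA was at 126, 127 and 135 RPM in DT and at 95.8, 149.7, 107 and 130.2 RPM in PBS, and the DT values lay within the PBS range (log2 difference 0.12 ± 0.17 SE, limma adjusted p = 0.616). Ddit3, the gene of the death-promoting factor Chop, was at 18.3, 13.4 and 20.2 RPM in DT and at 6.26, 18.7, 18.8 and 15.5 RPM in PBS (limma adjusted p = 0.554). PBS replicate 1 held the lowest Ddit3 value, and without that library the log2 difference was -0.04 in place of 0.30. Trib3, a pseudokinase induced by Atf4 and Chop, was low and scattered, at 1.01, 2.52 and 4.20 RPM in DT and at 0.482, 5.21, 0.975 and 6.88 RPM in PBS (limma adjusted p = 0.955).

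Ppp1r15a, which encodes the phosphatase subunit Gadd34 that restores translation, was at 31.8, 23.5 and 102 RPM in DT and at 6.57, 28.3, 26.3 and 21.8 RPM in PBS. DT replicate 3 alone was far above all other libraries, and the log2 difference of 1.18 ± 0.56 SE (limma adjusted p = 0.133) was 0.56 without it. Asns, asparagine synthetase, was at 29.7, 46.2 and 25.7 RPM in DT, against 7.95, 254, 179.8 and 180.0 RPM in PBS. PBS replicate 1 was below all DT libraries and the other 3 PBS libraries were well above them, so that the log2 difference of -1.46 ± 0.97 SE did not pass (limma adjusted p = 0.276). Without PBS replicate 1 it was -2.58 and passed (limma adjusted p = 3.1e-05), and with array weights it was -2.03 (0.02). The same library had the lowest erythroid sum given above, and the part of erythroid RNA in the Asns values was not tested.

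Of the degradation genes, Sel1l was higher and Herpud1 lower in DT, both near the threshold. Herpud1, a membrane protein that gathers the degradation complex and is itself an ER stress target, was at 353, 361 and 371 RPM in DT and at 754, 399, 594 and 508 RPM in PBS. The DT libraries were close together just under the lowest PBS library (ratio 0.642, limma adjusted p = 0.0434). Sel1l, the scaffold of the Hrd1 ligase, was at 47.6, 55.6 and 45.7 RPM in DT and at 38.6, 36.6, 30.9 and 34.6 RPM in PBS (1.41-fold, limma adjusted p = 0.0418). Both missed the threshold without any 1 of the DT libraries, without PBS replicate 3 or 4 and without the variance trend, with adjusted p of 0.0659 to 0.162. Herpud1 missed it also without a filter (0.138), under median-ratio scaling (0.275) and under quantile normalization (0.0509). Edem1, a lectin that hands misfolded glycoproteins to degradation, was at 49.5, 45.9 and 46.6 RPM in DT and at 41.9, 24.1, 33.2 and 30.6 RPM in PBS. Its groups did not overlap (1.46-fold, limma adjusted p = 0.0547), and it passed under 6 alternatives, with adjusted p from 0.0106 to 0.0476.

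The translocon genes were divided, and both calls held under every alternative run. Sec61a1 encodes the pore of the channel and lies on chromosome 6 at 88503579 to 88518905. It was at 261, 236 and 234 RPM in DT, against 121, 153, 174 and 151 RPM in PBS. No DT library overlapped with PBS (1.63-fold, log2 difference 0.71 ± 0.15 SE, limma adjusted p = 0.00621). Sec63, which lets Hspa5 pull some proteins through the channel, was at 46.3, 43.4 and 39.2 RPM in DT and at 87.5, 65.9, 76.7 and 109 RPM in PBS. It was lower in every DT library (ratio 0.506, log2 difference -0.94 ± 0.19 SE, limma adjusted p = 0.00444).

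Sec61b, a small subunit of the channel, was at 76.8, 76.3 and 76.0 RPM in DT and at 80.4, 99.2, 74.0 and 84.1 RPM in PBS. Ssr1, a subunit of the channel-associated TRAP complex, was at 669, 631 and 657 RPM in DT and at 534, 762, 637 and 718 RPM in PBS. Both overlapped between groups, with log2 differences of -0.13 ± 0.14 SE and -0.01 ± 0.15 SE (limma adjusted p = 0.499 and 0.967), and the sign of each turned positive under median-ratio scaling.

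**Figure D4:**
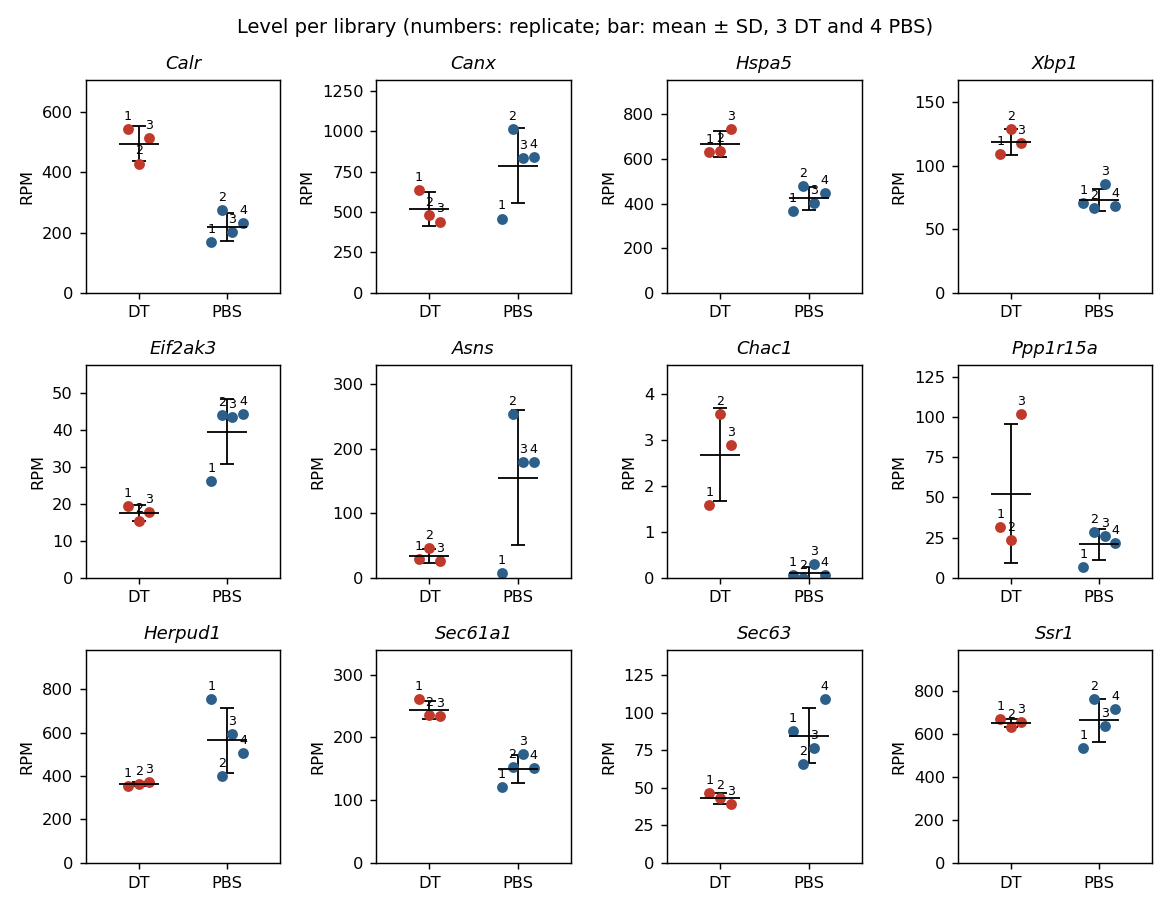
Level in RPM (linear axis from 0) of 12 members, with each point a library labelled by its replicate number and bars giving the mean ± SD of 3 DT and 4 PBS libraries. Calr, Hspa5, Xbp1, Chac1 and Sec61a1 are higher in every DT library, Eif2ak3, Herpud1 and Sec63 lower, PBS replicate 1 is apart in Asns and Canx, and DT replicate 3 is apart in Ppp1r15a.

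Divided by the longest annotated transcript, levels differed widely between members. In DT Pdia3 was the most abundant at 243 RPM per kb, followed by Calr at 227 RPM per kb, and in PBS Herpud1 was, at 289 RPM per kb. Calr stood above Canx in DT, at 227 against 121 RPM per kb, and below it in PBS, at 100.1 against 184 RPM per kb. The sensors were far less abundant, with Eif2ak3 at 3.88 and 8.75 RPM per kb and Ern1 at 1.26 and 0.739 RPM per kb in DT and PBS. The spread within groups differed too. The coefficient of variation had a median over members of 8.81% in DT, with Ppp1r15a highest at 82.2%, and of 21.8% in PBS, with Chac1 highest at 128%. PBS replicate 1 was the lowest PBS library in 15 of the 31 members.

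Exons of 11 members overlap another annotated gene. Reads inside a shared stretch cannot be told apart, for genes on opposite strands because strand use is not given. The partners with the most signal were Mars, opposite Ddit3, at 32.1 RPM in DT and 44.5 RPM in PBS, Dcaf1 (listed under its older symbol Vprbp), opposite Manf, at 17.3 and 38.6 RPM, Rbm15b, on the strand of Manf, at 10.9 and 25.1 RPM, and 1810014B01Rik, opposite Hsp90b1, at 16.9 and 20.0 RPM.

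Genes of the same pathway outside the members were called at shares near those of all genes or below them. Of 121 such genes in 6 lists 114 were tested, 16 were higher and 15 lower in DT, that is 14.0% and 13.2%, where 13.4% and 18.6% of all tested genes were. Their median log2 difference was -0.04. Median-ratio scaling gave 30 higher and 5 lower, where 17% and 8.88% of all tested genes were. Leaving out PBS replicate 1 gave 20 and 27, where 2108 and 3628 of all 14123 genes tested were. Leaving out DT replicate 3 gave 9 and 4, where 1383 and 1208 of 14029 were. Other folding enzymes came closest to the chaperones, with 5 of 17 higher (29.4%), 2 lower (11.8%) and a median of 0.11. P4hb, the founding protein disulfide isomerase, was at 451 ± 47.2 RPM in DT and 198 ± 23.3 RPM in PBS (SD, n = 3 and 4; limma adjusted p = 0.000265). Tor1a, an ATPase of the ER lumen, was at 105 ± 0.775 RPM in DT and 43.2 ± 10.5 RPM in PBS. Ero1l, the oxidase that recharges disulfide isomerases, was 2.25-fold and Fkbp11, a prolyl isomerase abundant in secretory cells, 4.36-fold higher in DT. The others called, named after their values were seen, were the glycoprotein folding sensor Uggt1, higher at 1.37-fold (a call lost under 7 alternatives), and the peroxidase Prdx4 and the thioredoxin-domain protein Txndc11, lower at ratios of 0.587 and 0.399 (for Txndc11 a call lost without a filter on low values).

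Among 22 tested targets of Atf4 outside the members, 4 were higher (18.2%) and 1 lower (4.55%) in DT, with a median of 0.02. Of all tested genes 13.4% were higher and 18.6% lower. Slc7a11, the cystine transporter, was at 23.3 ± 7.04 RPM in DT and 0.637 ± 0.560 RPM in PBS (SD, n = 3 and 4; limma adjusted p = 4.64e-05), and Nupr1, a stress-induced chromatin protein, at 23.6 ± 4.82 RPM and 2.14 ± 0.689 RPM. Sesn2, a sestrin that restrains growth signalling, was 4.95-fold higher. Atf3, a stress-induced transcription factor, had about 102, 109 and 770 reads in DT, against 3 in PBS replicate 1 and none in the other PBS libraries (limma adjusted p = 0.00475), and missed the threshold with voom on estimated reads (0.0716). Like Chac1, Slc7a11 and Atf3 reached the mean of 1 RPM only through the DT libraries, so once tested they had to be higher there. The gene lower in DT was Pck2, a mitochondrial carboxykinase, at 0.528 of its PBS level (limma adjusted p = 0.0459), a call lost under 13 alternatives. The count lower was 7 without PBS replicate 1, the library in which Asns was low. In that fit 3628 of all 14123 tested genes were lower, against 2622 of 14100 in the main fit.

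Of 20 other translocon and signal peptidase genes 6 were lower (30.0%) and 1 higher, with a median of -0.32, where 18.6% of all tested genes were lower and their median was -0.23. Srp14 and Srp19, parts of the signal recognition particle, were at 0.706 and 0.630 of their PBS level, Sec61g, a small channel subunit, at 0.428 and Tram1, a channel partner, at 0.604. The number lower was 1 without DT replicate 1 or 2, 2 without PBS replicate 4, and 0 by limma without DT replicate 3 or under median-ratio scaling, where 7 and 3 had an unadjusted p under 0.05, against 6 lower by voom on estimated reads. These 4 genes missed the threshold under median-ratio scaling, with adjusted p of 0.0705 to 0.243, and without DT replicate 3, with adjusted p of 0.0796 to 0.105. The gene that was higher was Ssr3, of the TRAP complex, at 1.46-fold. Of 17 further degradation genes 2 were higher (11.8%) and 4 lower (23.5%), near the 13.4% and 18.6% of all tested genes. Edem2 and Os9, lectins of glycoprotein degradation, were 1.89-fold and 1.48-fold higher, whereas Edem3 and Erlec1, of the same group, were at 0.470 and 0.409 of their PBS level. Of 11 oligosaccharyltransferase genes, which attach sugar chains to new proteins, Rpn1 was higher (9.09%) and Stt3b and Ost4 were lower (18.2%). Of 27 tested genes of transport between ER and Golgi 3 were higher (11.1%) and 24 did not pass. Those higher were Mcfd2, a cargo adaptor for clotting factors, Copg1, a coat protein, and Tmed10, a cargo receptor. All but Mcfd2, Edem2 and Edem3 of the genes named in this paragraph lost their call under at least 1 alternative.

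Markers of several blood cell types, which the gate was set to remove in part, also differed between DT and PBS, some lists upward and others downward. All 16 neutrophil and all 16 monocyte and macrophage markers were higher in DT, the second list summing to 7489 to 9700 RPM in DT and 486 to 1005 RPM in PBS. Of 11 tested T and natural killer cell markers 9 were higher, and the list summed to 398 to 421 RPM in DT and 56.3 to 123 RPM in PBS. Several monocyte and T cell markers, among them Fcgr1, C1qa, Cd3e and Trac, reached the mean needed for testing only through the DT libraries. Of 12 B-lineage markers 9 were lower, with sums of 3615 to 4080.4 RPM in DT and 5757 to 8661 RPM in PBS. Of 15 erythroid markers 10 were lower and 3 higher, namely Alas2 and the globin genes Hba-a1 and Hbb-bs.

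Plasma cell markers did not move as 1 group. Of 12 tested, 3 were higher and 3 lower, and the sum was 1299 to 2069 RPM in DT and 599 to 1041 RPM in PBS. The antibody genes Ighg1 and Igha and the joining chain gene Jchain were higher, at means of 235 ± 146, 665 ± 307 and 308 ± 65.4 RPM in the DT libraries, against 0.738 ± 0.203, 11.2 ± 18.9 and 11.2 ± 18.4 RPM in those given PBS (errors are SD over 3 and 4 libraries). In PBS, replicate 3 held Igha at 39.6 RPM and Jchain at 38.7 RPM, and the other libraries held 1.57 to 1.99 and 0.783 to 3.63 RPM. Ighg1 reached the mean needed for testing only through the DT libraries, so once tested it had to be higher there. Slamf7, a surface receptor of plasma cells and other leukocytes, was lower, at 102 ± 12.8 RPM in DT and 231 ± 49.1 RPM in PBS. Mzb1 and Irf4, both needed for antibody secretion, were lower too, and both missed the threshold under median-ratio scaling (limma adjusted p = 0.056 and 0.0671). Tnfrsf17, a plasma cell receptor, was at 0 to 0.410 RPM in DT and at 0 in every PBS library. Prdm1, like Tnfrsf17 too low to be tested, was at 0.247, 3.38 and 2.01 RPM in DT and at 0 to 0.486 RPM in PBS. The part of any of these cell types in the values of the ER genes was not tested.

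**Figure D5:**
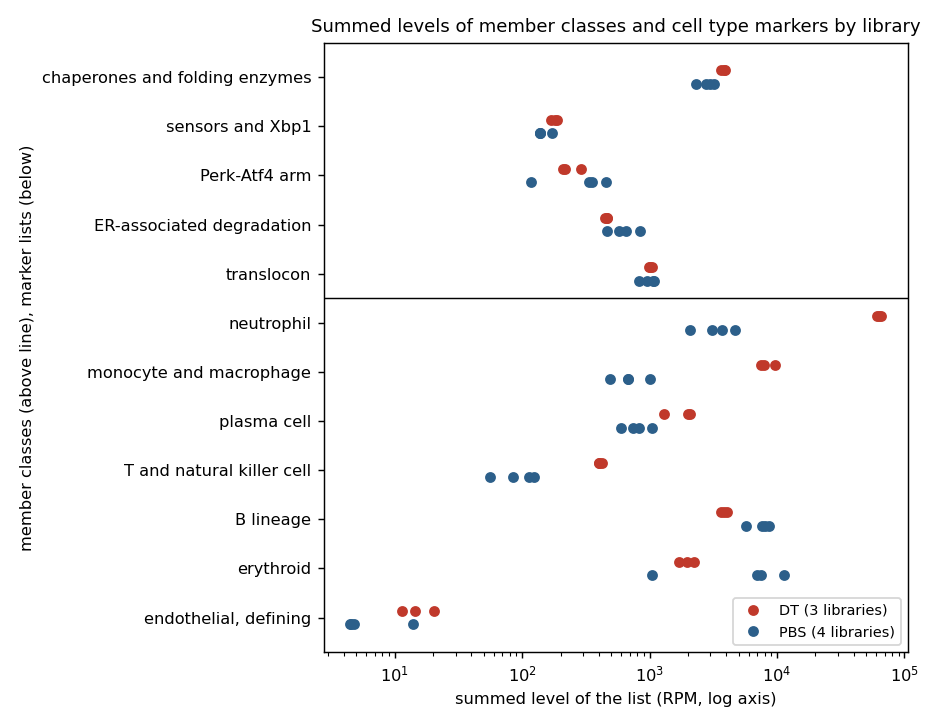
Summed level in RPM (log axis) of the 5 member classes (above the line) and of 7 marker lists (below it), with a point for each of 3 DT and 4 PBS libraries. The chaperone sum is 3609 to 3876 RPM in DT and 2327 to 3187 RPM in PBS, a smaller step than that of the neutrophil list, and the sums of the translocon class overlap between groups.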

How the data were processed

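RNA of 3 DT and 4 PBS samples was sequenced from 1 ng of amplified total RNA per the labels' protocols. STAR 2.5.3a, Partek and mm10 are named per the submitters' processing notes; annotation and strandedness were not stated. The authors deposited 1 normalized table whose name states FPKM, but its values are RPM plus an offset of 0.0001, since 1048 to 1220 genes of a library share its most frequent value, the step of 1 read. Of the values up to 20 steps, 60.9% to 62.8% lay within 0.02 of a whole number of steps, which did not allow reads to be rebuilt, and a log-scale test was used. A mean of 1 RPM was required, and genes above it were tested on log2(RPM + 1) with limma 3.58.1 in R 4.3.3 (intensity trend, two-sided, Benjamini-Hochberg over all 14100 genes, threshold 0.05), after a test on simulated data. Folds are ratios of group means in RPM; SE is that of limma. Members and lists were chosen with earlier results of these data known, so no set test was run. Named genes are all members, with values per library for up to 6 called members per class with the smallest p and for all members outside the chaperones, and up to 4 called genes with the smallest p per list. Uncalled chaperones given per library, Pck2, Ssr3, Mzb1, Irf4, Tnfrsf17, Prdm1 and the genes of the exon overlaps were chosen after their values were seen. Promoter sequences and starts are RefSeq's (GRCm38.p6), and gene positions and transcript lengths are from GENCODE vM21. Alternatives covered the pseudocount, filter, scaling, variance trend, array weights, a replicate block, voom on estimated reads and leaving out each library.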

Additional observations from a re-analysis of the deposited data

Results flagged for a closer look

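Each of the 31 members was examined for a PBS library far from the other PBS libraries by Dixon's criterion, which sets the gap to the nearest library against the range of the group. Eif2ak3 was the single gene singled out: DT libraries held 15.3 to 19.5 RPM, PBS replicate 1 held 26.3 RPM and the other 3 PBS libraries held 43.4 to 44.3 RPM. Asns, where PBS replicate 1 held 7.95 RPM, did not meet the criterion, because the other PBS libraries were themselves spread over 179.8 to 254 RPM. Chance marks about 1 in 20 groups in this way. Without PBS replicate 1 the log2 difference of Eif2ak3 was -1.28 in place of -1.10.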

How the results depend on the processing

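Of the comparisons of single members under 17 alternatives, 465 kept their direction and their side of the threshold, 23 lost a call, 20 gained one and 15 turned direction. Calr, Sdf2l1, Pdia3, Pdia6, Hspa5, Creld2, Xbp1, Eif2ak3, Sec61a1 and Sec63 kept their call and direction under every alternative, and Chac1 wherever it was tested. The members higher in DT numbered 8 to 14 and those lower 2 to 5 when 1 library was left out, and chaperones higher 6 to 8 and lower 0 to 1. With array weights 5 members and 1 chaperone were lower, where 3823 of all 14100 tested genes were. When 1 library was left out, 1383 to 2108 of all tested genes were higher and 1208 to 3628 lower. Among the 6 other lists, 9 to 20 genes were higher and 4 to 27 lower when 1 library was left out. Median-ratio scaling gave 30 higher and 5 lower there, no filter 6 lower, no variance trend 9 lower and array weights 24 lower. For all tested genes these numbers were 2402 and 1252, 1689, 2371 and 3823, against 1894 higher and 2622 lower in the main fit. The turns concerned members that did not pass: Trib3 was at 0.08 with a pseudocount of 0.1, 0.12 under median-ratio scaling, 0.10 with voom and 0.23 to 0.34 without DT replicate 1, PBS replicate 2 or PBS replicate 4; Ssr1 at 0.24 and Sec61b at 0.11 under median-ratio scaling; Ssr1 at 0.01 to 0.06 without DT replicate 2, PBS replicate 2 or PBS replicate 4; and Dnajc3 without DT replicate 1 and Ddit3 without PBS replicate 1 both at -0.04. With 1 library left out, the full range was -0.46 to 0.34 for Trib3, -0.11 to 0.06 for Ssr1, -0.04 to 0.46 for Ddit3 and -0.04 to 0.11 for Dnajc3. The cause was not tested.

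Replicate numbers did not pair the libraries. Deviations from the group means correlated at 0.04, 0.05 and 0.01 for numbers 1 to 3, and DT replicate 3 correlated best with PBS replicate 4. With a replicate block Herpud1 and Sel1l missed the threshold (limma adjusted p = 0.0731 and 0.12), 10 members were higher and 2 lower, 7 chaperones were higher, 10 genes of the other lists were higher and 6 lower, and Trib3 was at 0.34 and Ssr1 at 0.03. With the same block 1647 of all 14100 tested genes were higher and 1574 lower. Depth limits Chac1 and Atf3, whose levels in PBS rest on 0 to 11 and 0 to 3 reads in a library.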

Other observations

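Outside the members, 28 genes held an ERSE in the 250 bases before their start and 7 of them were tested. Hnrnpa3, an RNA-binding protein gene, and Xlr3b were lower in DT, with log2 differences of -0.91 and -1.28 (limma adjusted p = 0.00336 and 0.0337), as was Syvn1, the ubiquitin ligase of ER-associated degradation, at -0.72 (0.0212). Syvn1 missed the threshold under 6 alternatives, among them median-ratio scaling (-0.47, limma adjusted p = 0.138), while Hnrnpa3 and Xlr3b were not recomputed under alternatives. Derl3, a channel component of the same degradation route, was at 0.40 and Alg12, a mannosyltransferase of sugar chain assembly, at 0.55, and neither passed (0.518 and 0.255). Adcy3 and Pan2 were at -0.20 and -0.26 without passing.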
